A study of Mus musculus with 42 samples.

Results

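The circadian clock genes are described here across 3 tissues, 2 genotypes and 2 ages of mice. They are 10 genes of the 27597 gene names on the array, namely Arntl, Clock, Per1, Per2, Per3, Cry1, Cry2, Nr1d1, Nr1d2 and Dbp. The members were taken by name from the gene column of the scanner files, which gave 18 of 41174 probes that are not controls.

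RNA was measured on 42 arrays, each holding the RNA of 1 tissue of female C57BL/6 mice. The tissues were liver, quadriceps muscle and visceral fat, with 14 arrays for each. In every tissue there were 3 wild-type and 3 Akt1+/- arrays at 8 weeks, and 4 wild-type and 4 Akt1+/- arrays at 35 weeks. Akt1+/- mice carry 1 intact copy of the kinase gene Akt1 in every cell of the body, the line had been backcrossed for 6 generations, and wild-type littermates were the controls. The ages are those of the sample labels, and the study's methods state a higher age for the older mice. The time of day at which tissues were taken and the feeding state of the mice are not given in the sources used here. Replicate numbers run through the 3 tissues, but the labels do not say whether arrays with the same number came from the same mouse, nor do they describe the replicates further, so p-values measure only the spread between these arrays.

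Levels are on the log2 scale with 0 at the 75th percentile of the array's probes, so that 1 unit is a 2-fold difference. Akt1 itself was lower in Akt1+/- arrays, by 0.67 ± 0.08 (SE) in liver (adjusted p = 0.0025) and by 0.55 ± 0.07 in fat (adjusted p = 0.0065). In muscle the difference was -0.58 ± 0.11 (adjusted p = 0.074), and in no tissue did Akt1+/- and wild-type arrays of one age overlap in Akt1. Markers of hepatocytes, muscle fibers and adipocytes were highest in their own tissue. All arrays were usable, with 56.5% to 68.6% of probes well above background and no probe of the series saturated. In tissue RNA, fewer cells of a type and less RNA per cell cannot be told apart. No slide and no scan day held both ages of a tissue, so age cannot be told apart from either. The genotypes also lay on separate slides in every tissue at 35 weeks and in liver at 8 weeks, and in fat at 35 weeks on separate scan days, so genotype and slide cannot be told apart there.

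The circadian clock of mammalian cells is a loop of transcription that takes about a day. Clock and the protein of Arntl (also called Bmal1) pair as transcription factors, bind E-boxes and switch on the Per and Cry genes, whose proteins then repress that pair. Nr1d1 and Nr1d2 (also called Rev-erb alpha and beta) are nuclear receptors that repress Arntl in a second loop, and Dbp is an output factor, induced by the pair, that binds D-boxes. In liver, muscle and fat these genes are known to cycle over the day, Arntl in the opposite phase to Dbp and the Per genes. Feeding time and glucocorticoids are known to set the clocks of these tissues.

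Promoter windows from 250 bases before to 50 bases after each start site were available from RefSeq (build GRCm38.p6) for 9 of the 10 genes, in 13 windows. Per2 was not among them. Both strands were searched for the E-box CACGTG, its variant the E'-box CACGTT, the D-box TTATGTAA or TTACGTAA, the cyclic AMP response element TGACGTCA and the RRE, the site of the Nr1d receptors. None of these motifs contains another. The stretches below come from 3 genes and are shown because they hold the elements through which the loop is known to act. Each is written 5′ to 3′ on the strand of the gene, with the motifs in capitals.
Per3 (chr4:151044801-151044885, minus strand, 220 to 136 bases before the start): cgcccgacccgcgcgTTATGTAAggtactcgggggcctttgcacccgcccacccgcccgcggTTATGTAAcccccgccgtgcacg
Cry1 (chr10:85185094-85185148, minus strand, 94 to 40 bases before the start): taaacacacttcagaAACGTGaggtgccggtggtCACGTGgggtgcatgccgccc
Nr1d1 (chr11:98775385-98775420, minus strand, 43 to 8 bases before the start): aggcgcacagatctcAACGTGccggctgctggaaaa

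Per3 held 2 D-boxes, Cry1 held an E'-box on the opposite strand and an E-box, and Nr1d1 held an E'-box on the opposite strand. In windows not printed above, Per1 held an E-box 166 bases before its start and Cry2 an E'-box at the same distance. In 4 genes no motif was found, and neither the cyclic AMP response element nor the RRE occurred in any of the 13 windows. Among all 32851 windows of the same length, 6.02% held an E-box, 3.85% an E'-box, 0.931% a D-box, 1.55% the cyclic AMP response element and 0.332% the RRE. A match is a description of the letters only.

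The clock genes differed in level between tissues. On arrays levels can be compared between tissues for 1 probe but not between genes, because each probe binds with its own strength. Arntl was highest in muscle, at 2.61 ± 0.46 (SD, n = 14), against 0.57 ± 0.71 in liver and 0.46 ± 0.38 in fat. The difference of muscle from fat was 2.09 ± 0.19 (SE), or 4.27-fold (adjusted p = 5.29e-12), whereas liver and fat did not differ beyond their spread (0.11, 95% interval -0.29 to 0.51). Cry2 was highest in muscle too, with muscle higher than liver by 1.92 ± 0.13 (adjusted p = 6.4e-16) and liver lower than fat by 0.59 ± 0.13 (adjusted p = 7.1e-05).

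Nr1d2 was also highest in muscle, and was higher in liver than in fat by 1.07 ± 0.17 (adjusted p = 5.1e-07). Cry1 and Nr1d1 were higher in muscle than in liver, by 0.72 and 0.82. Per1 was lowest in liver, 1.35 ± 0.25 below muscle (adjusted p = 7.9e-06). Its difference of 0.50 between muscle and fat did not pass (adjusted p = 0.058). That difference passed with the replicate number as a random block across tissues (adjusted p = 0.031) or with median scaling (0.68, adjusted p = 0.014). Per2 went the other way by its brightest probe, which was lowest in muscle, 0.90 ± 0.26 below liver (adjusted p = 0.0016). A dimmer Per2 probe was lowest in fat, with group means of -3.99 to -3.67 against -3.63 to -3.08 in muscle. With all probes averaged, the Per2 difference of muscle from fat did not pass (-0.18, adjusted p = 0.16). Liver was then above fat by 0.69 (adjusted p = 6.0e-06). Dbp was highest in liver, 1.13 ± 0.32 above fat (adjusted p = 0.0017), and its difference of 0.50 from muscle did not pass (adjusted p = 0.14). By its brightest probe, Clock varied least between tissues, with differences of 0.33 or less in size. With all probes averaged, Clock was higher in liver than in muscle by 0.38 (adjusted p = 0.00011). Its liver and fat difference then did not pass (-0.07, adjusted p = 0.43), nor did it with median scaling (-0.02, adjusted p = 0.77). Averaged probes also lost the Cry1 difference of muscle from fat (0.32, adjusted p = 0.075).

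Of the 9 clock genes kept in all tissues, 7 differed between liver and muscle, 5 between liver and fat and 7 between muscle and fat, at an adjusted p below 0.05. The same threshold was passed by 87.6%, 86.7% and 89% of all genes, so the share of clock genes was not above that background. Per3 was dim and was tested in muscle and fat only. Over the series its probe was well above background on 27 of 42 arrays.

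**Figure D1:**
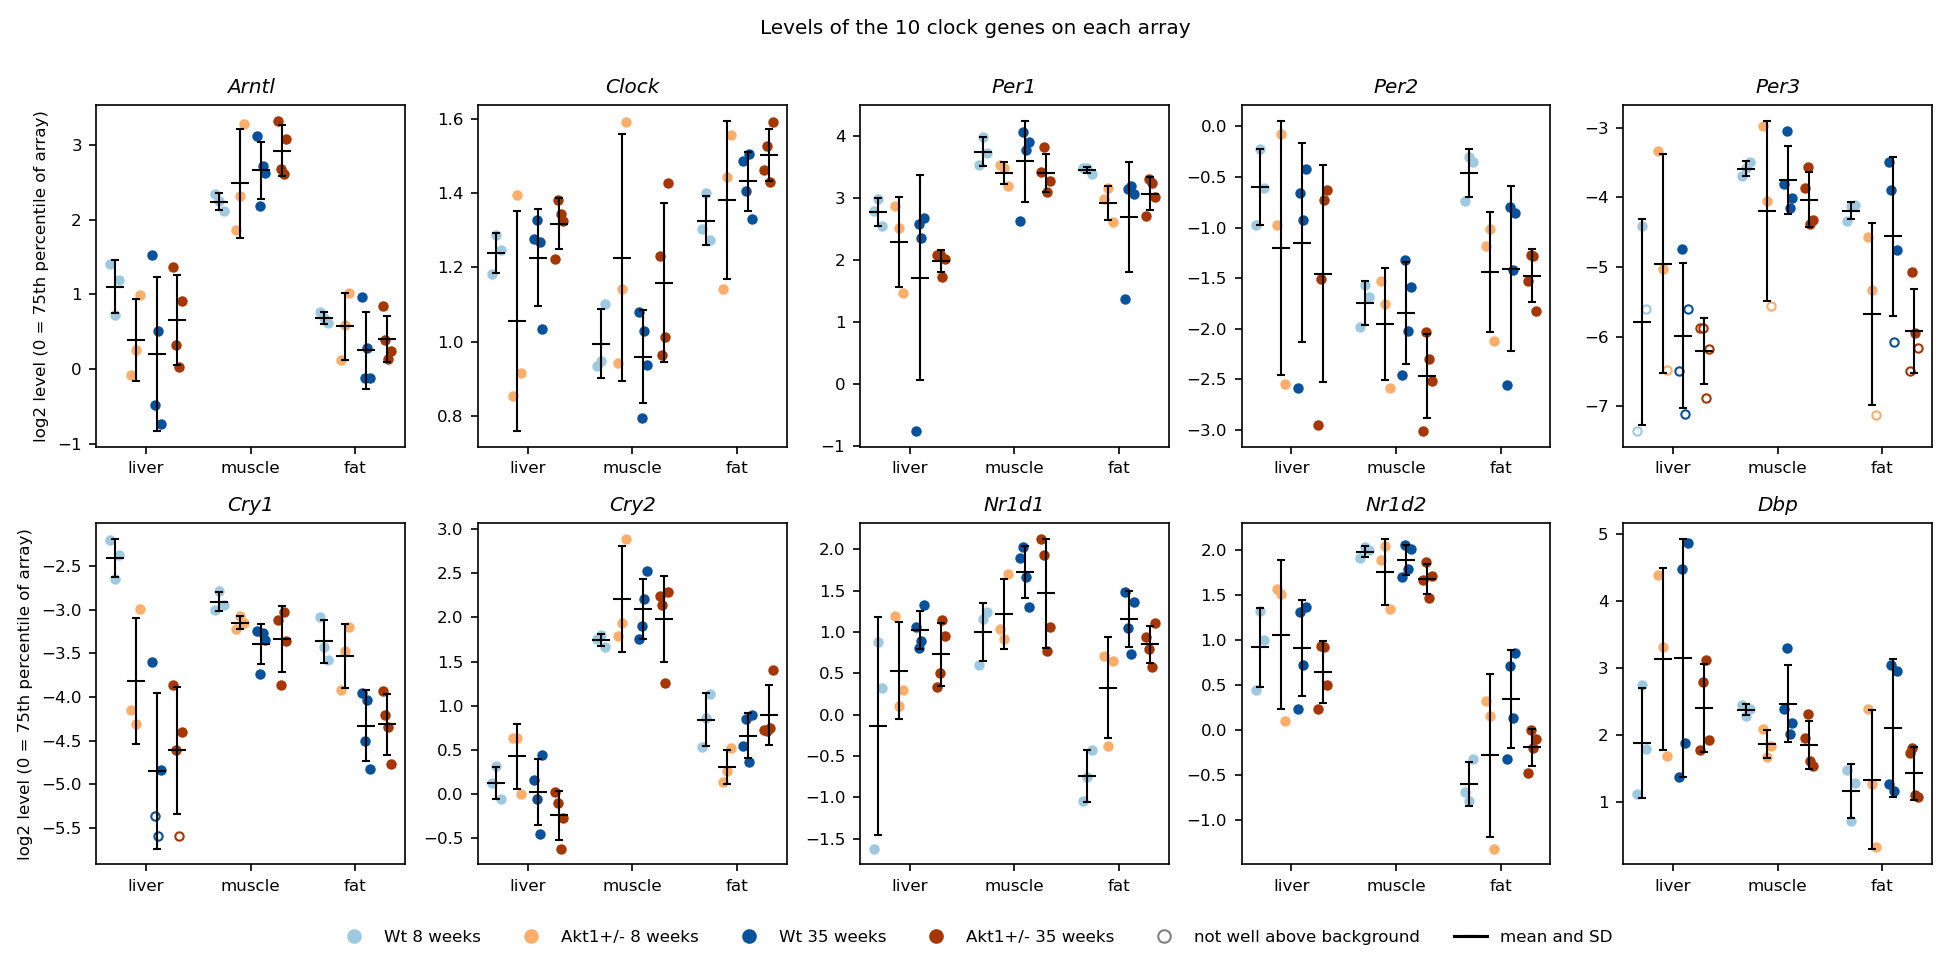
Level of each clock gene on every array (log2, 0 at the 75th percentile of the array), by tissue and by the 4 groups, with 1 panel for each gene. Points are arrays, open where the probe was not well above background, and bars are the mean and SD, with n = 3 at 8 weeks and n = 4 at 35 weeks. Arntl stands highest in muscle, Cry1 is lower at 35 weeks in liver and fat, and the points of Per1, Per2, Dbp and Arntl in liver spread widely within a group.

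Arrays of 35-week-old mice were compared with those of 8-week-old mice over both genotypes. Cry1, a repressor of the Clock and Arntl pair, was lower at 35 weeks in liver and fat, and Nr1d1 was higher in fat. Cry1 fell by 1.62 ± 0.35 (SE, adjusted p = 0.0037), or 3.07-fold, in liver and by 0.87 ± 0.18 (adjusted p = 0.0064), or 1.83-fold, in fat. Nr1d1 rose by 1.21 ± 0.19 (adjusted p = 0.0015), or 2.32-fold, in fat. No other clock gene passed the threshold in any tissue. Thus 1 of 9 clock genes was called in liver, 0 of 10 in muscle and 2 of 10 in fat, where 35.1%, 31.4% and 19.2% of all genes tested were called. Of all genes, 20% rose and 15.1% fell in liver, 16.8% rose and 14.6% fell in muscle, and 9.94% rose and 9.31% fell in fat. An unadjusted p below 0.05 was reached by 2, 1 and 2 clock genes in the same order of tissues, against 44.9%, 43.0% and 34.4% of all genes. The share of clock genes called was below or near that background in each tissue.

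Cry1 in liver was -2.20, -2.64 and -2.37 in wild-type arrays at 8 weeks and -4.15, -4.31 and -2.99 in Akt1+/- arrays at 8 weeks. At 35 weeks it was -3.60, -5.36, -5.59 and -4.83 in wild-type arrays and -3.86, -4.60, -5.59 and -4.39 in the Akt1+/- ones. Every wild-type liver at 35 weeks was thus below every wild-type liver at 8 weeks, while the Akt1+/- ages overlapped. The probe was not well above background on 3 of the 8 older livers (2 wild-type and 1 Akt1+/-), so the values -5.36, -5.59 and -5.59 are bounds and the fold depends on them.

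In fat, Cry1 was -3.09, -3.42 and -3.57 in wild-type arrays and -3.92, -3.47 and -3.20 in the Akt1+/- ones at 8 weeks. At 35 weeks it was -3.95, -4.50, -4.03 and -4.82 in wild-type arrays and -3.93, -4.21, -4.35 and -4.77 in the Akt1+/- ones. All 8 older fat arrays lay below all 6 younger ones, but only just, with the closest at -3.93 and -3.92. The share of all genes whose groups separate without overlap is not given, here or in the passages on Cry1 in liver and Nr1d1. In muscle the 8-week arrays ran from -3.22 to -2.78 and the 35-week arrays from -3.86 to -3.02, with a difference of -0.34 ± 0.13 (adjusted p = 0.06).

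The age difference of Cry1 was not the same in the 3 tissues (F test of the difference, adjusted p = 0.0167), a threshold that 35% of all 15455 genes passed and 0 of the other 8 clock genes. It did not pass with slide as a random block (adjusted p = 0.056) or with all probes of a gene averaged (adjusted p = 0.16), and Cry1 left the fit when probes had to be well above background on every array. With background corrected by a convolution model in place of the scanner's processed signal, Cry1 fell by 0.58 in liver and by 0.24 in fat and still passed. A second, dimmer Cry1 probe differed by -0.48 in liver (adjusted p = 0.30) and -0.16 in fat (adjusted p = 0.62), neither of which passed. That probe was well above background on only 7 of 14 liver arrays, so its liver values are partly bounds. Its liver means at 8 weeks were -3.95 in wild-type and -5.59 in Akt1+/- arrays. At 35 weeks they were -5.31 and -5.19.

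Nr1d1 in fat was -1.05, -0.75 and -0.43 in wild-type arrays and 0.71, -0.38 and 0.65 in the Akt1+/- ones at 8 weeks. At 35 weeks it was 1.48, 1.05, 0.74 and 1.37 in wild-type arrays and 0.94, 0.79, 0.58 and 1.11 in the Akt1+/- ones. The wild-type ages were separate, and the Akt1+/- ages overlapped. In liver and muscle the differences were 0.68 ± 0.34 (adjusted p = 0.13) and 0.49 ± 0.23 (adjusted p = 0.13). The other 2 Nr1d1 probes also rose in fat, by 0.75 (adjusted p = 0.0077) and 0.49 (adjusted p = 0.012), and they rose in liver too, by 0.92 (adjusted p = 0.021) and 0.82 (adjusted p = 0.016). Nr1d1 overlaps Thra, a thyroid hormone receptor gene, on the opposite strand.

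Probes of one gene gave different results with age in 3 further cases. The brightest Per2 probe (chr1:93246875-93246934 in build mm8) differed by -0.40 in liver and -0.30 in muscle and did not pass, whereas a dimmer probe (chr1:93270367-93270426) rose by 1.40 in liver (adjusted p = 3.8e-05) and by 0.39 in muscle (adjusted p = 0.013). The brightest Clock probe differed by 0.13 in liver and 0.11 in fat and did not pass, whereas another Clock probe fell by 0.49 in liver (adjusted p = 0.0035) and by 0.46 in fat (adjusted p = 0.0010). A second Cry2 probe rose by 0.67 in muscle (adjusted p = 0.024), where the brightest differed by 0.06 and did not pass. For these genes, and for Cry1 and for Nr1d1 in liver, the call thus depends on the probe.

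To ask whether the tissues of an age group shifted together, as another time of sampling would make them do, the signs of the age differences were listed for the 9 genes measured in all tissues, with no test. The difference was positive in all 3 tissues for Nr1d1 and Dbp, except that Dbp lost this with arrays scaled to the median. It was negative in all 3 for Cry1, Per1 and Per2, except that Per2 lost this with all probes of a gene averaged. For Arntl, Clock, Cry2 and Nr1d2 the signs differed between tissues. Apart from the Cry1 and Nr1d1 calls above, none of these differences passed the adjusted threshold, although the 95% interval left out 0 for Cry1 in muscle (-0.62 to -0.06) and Cry2 in liver (-0.73 to -0.04). The 95% intervals were wide for the most variable genes, reaching 1.32 to either side of the estimate for Dbp in liver.

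**Figure D2:**
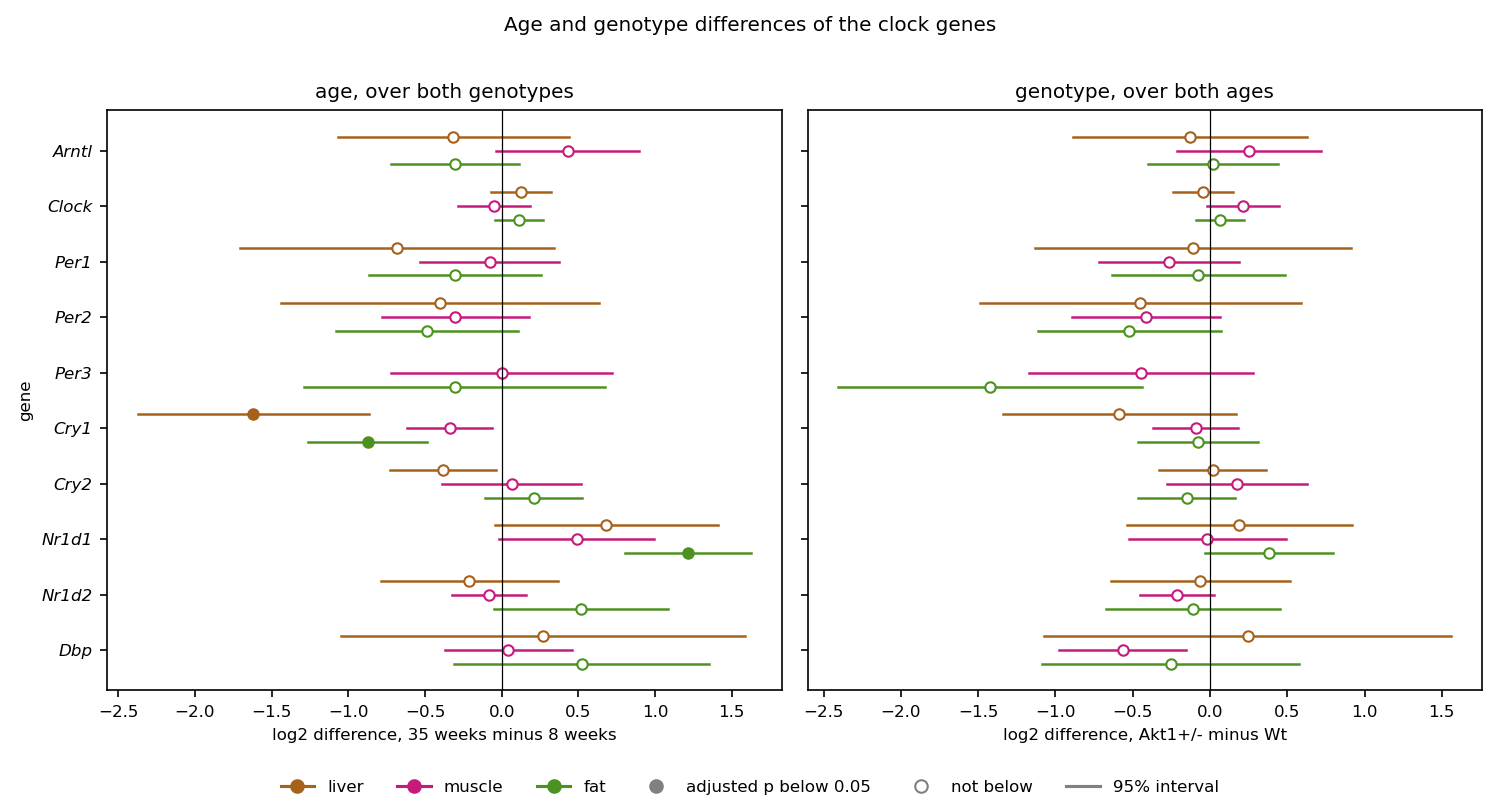
Age difference (35 weeks minus 8 weeks, left) and genotype difference (Akt1+/- minus wild-type, right) of each clock gene in each tissue, as log2 differences with 95% intervals. Filled points passed an adjusted p below 0.05, which held for Cry1 in liver and fat and Nr1d1 in fat with age and for no clock gene with genotype.

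The genotypes were compared within each tissue. Over both ages, 0 of 9 clock genes differed in liver, 0 of 10 in muscle and 0 of 10 in fat, where 6.26%, 0% and 0.822% of all genes were called by limma. At an unadjusted p below 0.05 the counts were 0, 1 and 1, against 26.4%, 18.4% and 19.3% of all genes. The gene in muscle was Dbp, with a difference of -0.57 (adjusted p = 0.17), and the gene in fat was Per3, with a difference of -1.42 (adjusted p = 0.14).

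Within the 8-week arrays no clock gene was called in any tissue (background 2.12%, 0% and 1.83% for liver, muscle and fat), with 1, 0 and 3 genes at an unadjusted p below 0.05, against 20.9%, 15.8% and 24.1% of all genes. Within the 35-week arrays none was called either (background 3.55%, 0.0992% and 1.72%), with 0, 1 and 1 genes at that p, against 17.0%, 9.15% and 12.3% of all genes. The interaction of genotype and age was passed by no clock gene (background 0.564%, 0% and 1.64%), with 1, 0 and 2 at an unadjusted p below 0.05, against 13.9%, 8.39% and 20.1% of all genes. The genotype effect differed between tissues for none of the 9 clock genes and for 6.05% of all genes.

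Some of these differences were large but uncertain. By its brightest probe, Nr1d1 in fat at 8 weeks was higher in each Akt1+/- array than in each wild-type array, by 1.07 on average (adjusted p = 0.064). Its interaction with age was -1.38 ± 0.38 (adjusted p = 0.087). Both passed with the replicate number as a random block (adjusted p = 0.034 and 0.047) and when single 8-week fat arrays were left out. Without Akt1+/- replicate 2 the 2 values were 1.42 (adjusted p = 0.045) and -1.73 (adjusted p = 0.030), and without wild-type replicate 3 the first was 1.23 (adjusted p = 0.048). By its dimmest probe, Nr1d1 in fat at 8 weeks was not higher in Akt1+/- arrays, with means of -4.38 in wild-type and -4.45 in Akt1+/- arrays. By its remaining probe the means were -3.61 and -3.11, but Akt1+/- replicate 2 (-3.65) lay within the wild-type range (-3.67 to -3.56). Wild-type replicates 1 and 2 lay on another slide and scan day than these Akt1+/- arrays. Only wild-type replicate 3 shared theirs, so without it genotype and slide cannot be told apart. Cry1 in liver at 8 weeks was lower in each Akt1+/- array than in each wild-type array, by 1.41 on average (adjusted p = 0.15).

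The signs of the genotype differences were listed in the same way. Over both ages the difference of Akt1+/- from wild-type arrays was negative in all 3 tissues for Cry1, Per1, Per2 and Nr1d2, also with the convolution background correction, median scaling or averaged probes. At 8 weeks it was positive in all 3 for Nr1d1 and negative for Cry1, Per1 and Per2, under the same alternatives too. At 35 weeks it was positive for Arntl, Clock and Cry1 and negative for Per2, Nr1d1, Nr1d2 and Dbp in all 3, but with averaged probes this held for Arntl, Nr1d2 and Dbp alone, with median scaling it was lost for Clock and Cry1, and with the convolution background correction it was lost for Cry1. None of these genotype differences passed the test.

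The clock genes were among the genes that varied most between liver arrays of 1 group. The within-group SD of Dbp was 1.26 in liver, above 99.6% of the 17560 genes tested, and the SDs of Per2 and Per1 were 0.99 and 0.97, both above 98% of genes. Arntl, Cry1, Nr1d1 and Nr1d2 followed with 0.71, 0.71, 0.69 and 0.54. Thus 7 of 9 clock genes were above the 90th percentile of liver genes, which by construction 10% of genes exceed. Cry2 (0.32) and Clock (0.16) were not. The median gene had an SD of 0.22. These SDs are those of the brightest probe of each gene. The dimmer Per2 probe had SDs of 0.15 to 0.36 in the liver groups. The Cry1 probe was well above background on 11 of 14 liver arrays.

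In muscle 2 of 10 clock genes were above the 90th percentile, Per3 and Nr1d1, and in fat 3 of 10, Per3, Dbp and Per2. The background was again 10% in both. Per3 was partly below background in these tissues. Clock stood at the 53.4th percentile in muscle and the 13.6th in fat, and it was the steadiest clock gene in every tissue.

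Dbp in liver shows the size of this spread. It was 1.38, 4.48, 1.89 and 4.87 in the 4 wild-type livers at 35 weeks, a range of 11.2-fold, and 1.78, 2.78, 3.12 and 1.92 in the Akt1+/- livers of that age. At 8 weeks it was 1.12, 2.75 and 1.79 in wild-type livers and 4.38, 3.32 and 1.69 in the Akt1+/- ones. In each of the 4 groups some livers were low and others high, and the groups overlapped.

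Per1 in liver was 2.79, 2.98 and 2.54 (wild-type) and 2.86, 2.52 and 1.47 (Akt1+/-) at 8 weeks. At 35 weeks it was -0.76, 2.57, 2.36 and 2.68 in wild-type livers and 2.07, 2.10, 1.71 and 2.02 in the Akt1+/- ones. Wild-type replicate 1 at 35 weeks stood 10.9-fold below the highest of its group. That replicate number was also lowest in its group for Per1 in fat (1.36 against 3.05 to 3.19) and in muscle (2.62 against 3.77 to 4.06).

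Arrays with the same group and number in different tissues were then compared. Each gene was read from its brightest probe only. Each value was taken as its deviation from the mean of its group, and the deviations in 1 tissue were correlated with those in another over the 14 same-numbered pairs. The exact test rematched the arrays within groups in all 20736 ways and was two-sided. It treated the groups as independent of each other. At 35 weeks, however, same-numbered wild-type and Akt1+/- arrays of a tissue correlated over all genes (r of 0.105 to 0.526). The older pairs may thus not be independent across genotypes, and the exact p may be too small. The p of the exact test was adjusted over all genes measured in both tissues. Under that adjustment no gene of the array passed, clock genes included. Unadjusted values are given with the share of all genes that reached them. The clock genes are not independent of each other.

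Arntl deviated in the same direction in all 3 pairs of tissues. Its Pearson r was 0.90 between liver and fat (Spearman rho 0.89, exact p = 0.0012 and 0.0015, adjusted p = 0.18 and 0.23). Between liver and muscle r was 0.78 (rho 0.82, exact p = 0.0020 and 0.0015, adjusted p = 0.15 and 0.20). Between muscle and fat r was 0.84 (rho 0.78, exact p = 0.0034 and 0.012, adjusted p = 0.30 and 0.46). Without the 2 pairs farthest from the median, r was 0.83, 0.86 and 0.82 in the same order.

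The values of Arntl show this on single arrays. In wild-type mice at 35 weeks Arntl was 1.52, -0.48, 0.51 and -0.74 in liver, 0.96, -0.12, 0.28 and -0.12 in fat and 3.11, 2.18, 2.71 and 2.62 in muscle. Replicate 1 was the highest in each tissue, and replicates 2 and 4 were the lowest in liver and fat. In Akt1+/- mice at 8 weeks Arntl was -0.08, 0.26 and 0.998 in liver, 0.12, 0.59 and 1.02 in fat and 1.85, 2.31 and 3.28 in muscle, with replicate 1 lowest and replicate 3 highest in each tissue.

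Per2 and Nr1d2 also shifted together across the tissues. For Per2 r was 0.72 between liver and fat (rho 0.59, exact p = 0.026 and 0.050), 0.80 between liver and muscle (rho 0.58, exact p = 0.013 and 0.072) and 0.84 between muscle and fat (rho 0.92, exact p = 0.0039 and 0.00077). For Nr1d2 r was 0.88, 0.79 and 0.85 in the same order (rho 0.89, 0.82 and 0.78, exact p of r = 0.0068, 0.018 and 0.014). Without the 2 farthest pairs the 3 values were 0.70, 0.59 and 0.68 for Per2 and 0.57, 0.39 and 0.70 for Nr1d2. The adjusted p of these 6 values of r lay between 0.24 and 0.41. The dimmer Per2 probe did not always follow the brightest. In wild-type mice at 35 weeks it was highest in replicate 1 in liver (-1.62), muscle (-2.95) and fat (-2.54), where the brightest was lowest. In Akt1+/- mice at 8 weeks both probes were lowest in replicate 3 in each tissue. Correlations of the dimmer probe are not given here.

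Per1 had the highest r of all clock genes, 0.92 between liver and fat (rho 0.78, exact p = 0.066 and 0.050), but this rested on wild-type replicate 1 at 35 weeks and Akt1+/- replicate 3 at 8 weeks. Without them r was -0.30, and without the first alone it was 0.41. Between liver and muscle r of Per1 was 0.90 (rho 0.87, exact p = 0.0019 and 0.00082) and 0.60 without those pairs. Between muscle and fat it was 0.84 (rho 0.66, exact p = 0.061 and 0.068) and 0.30 without its 2 farthest pairs.

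Per3, measured in muscle and fat only, had r = 0.78 (rho 0.73, exact p = 0.027 and 0.025) and 0.60 without the 2 farthest. Dbp had r = 0.75 between liver and fat, 0.33 between liver and muscle and 0.59 between muscle and fat, with exact p of 0.074, 0.56 and 0.058 (rho 0.70, 0.17 and 0.60). For Clock, Cry1, Cry2 and Nr1d1 r was at most 0.68, and its exact p was 0.086 or higher in every pair of tissues.

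In all, r reached 0.7 for 5 of 9 clock genes between liver and fat, 4 of 9 between liver and muscle and 5 of 10 between muscle and fat, against 5.44%, 5.51% and 3.56% of all genes. An unadjusted exact p below 0.05 was reached by 3 of 9, 4 of 9 and 4 of 10 clock genes, against 11.8%, 11.8% and 8.82% of all genes. The median r of all genes was 0.17, 0.15 and 0.11. Between liver and fat the first count was 2 without wild-type replicate 1 at 35 weeks and 3 without wild-type replicate 4 at 35 weeks, and between muscle and fat it was 3 without Akt1+/- replicate 3 at 8 weeks.

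At 35 weeks the replicate number was also the position on the slide on all 24 arrays, so the 2 cannot be told apart there. At 8 weeks number and position matched on 4 of 18 arrays. Within the 6 pairs at 8 weeks r of Arntl was 0.85, 0.85 and 0.97 for liver and fat, liver and muscle, and muscle and fat, and within the 8 pairs at 35 weeks it was 0.93, 0.86 and 0.82. For Per2 the values were 0.96, 0.85 and 0.95 at 8 weeks and 0.61, 0.77 and 0.80 at 35 weeks.

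**Figure D3:**
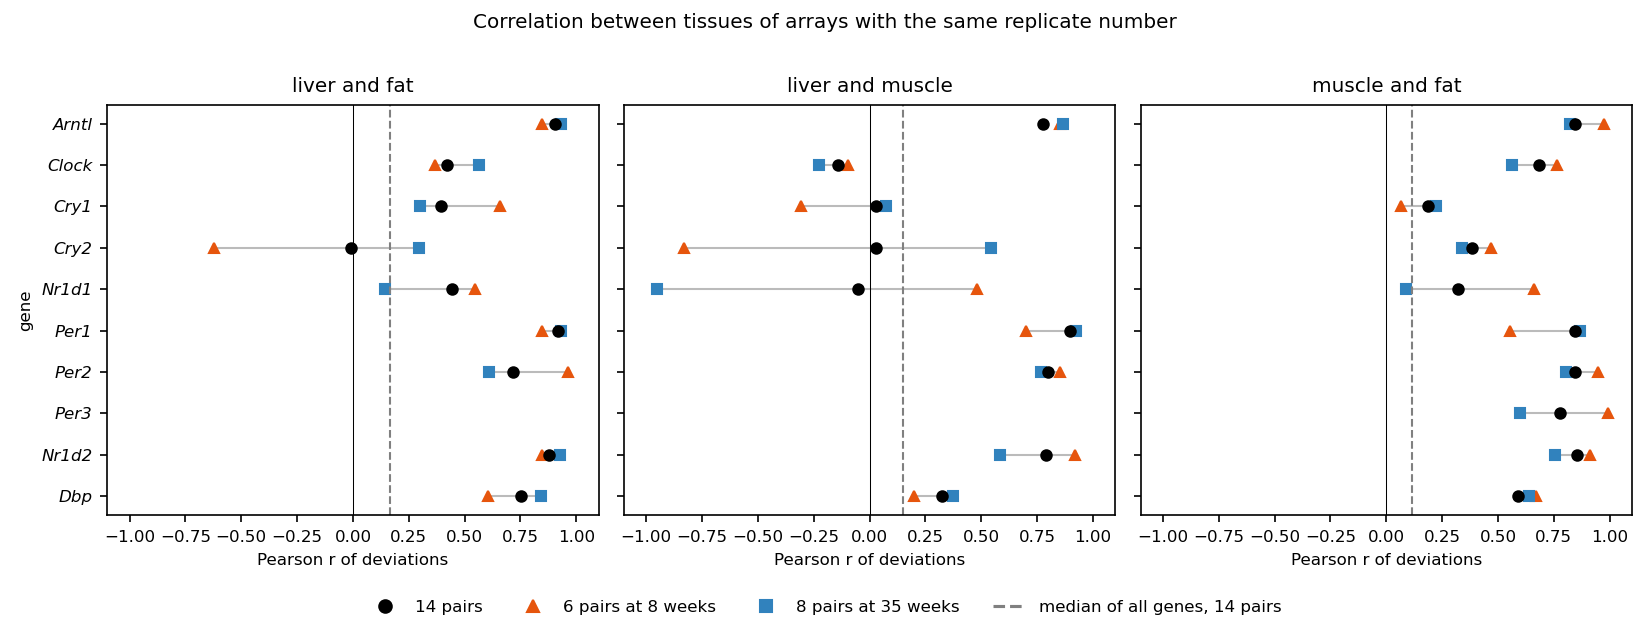
Correlation of same-numbered arrays across tissues for each clock gene (Pearson r of deviations from the group mean, over 14 pairs, over the 6 pairs at 8 weeks and over the 8 pairs at 35 weeks), with 1 panel for each pair of tissues. The dashed line is the median r of all genes, 0.17, 0.15 and 0.11, and Arntl, Per1, Per2 and Nr1d2 lie far to its right in each panel.

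**Figure D4:**
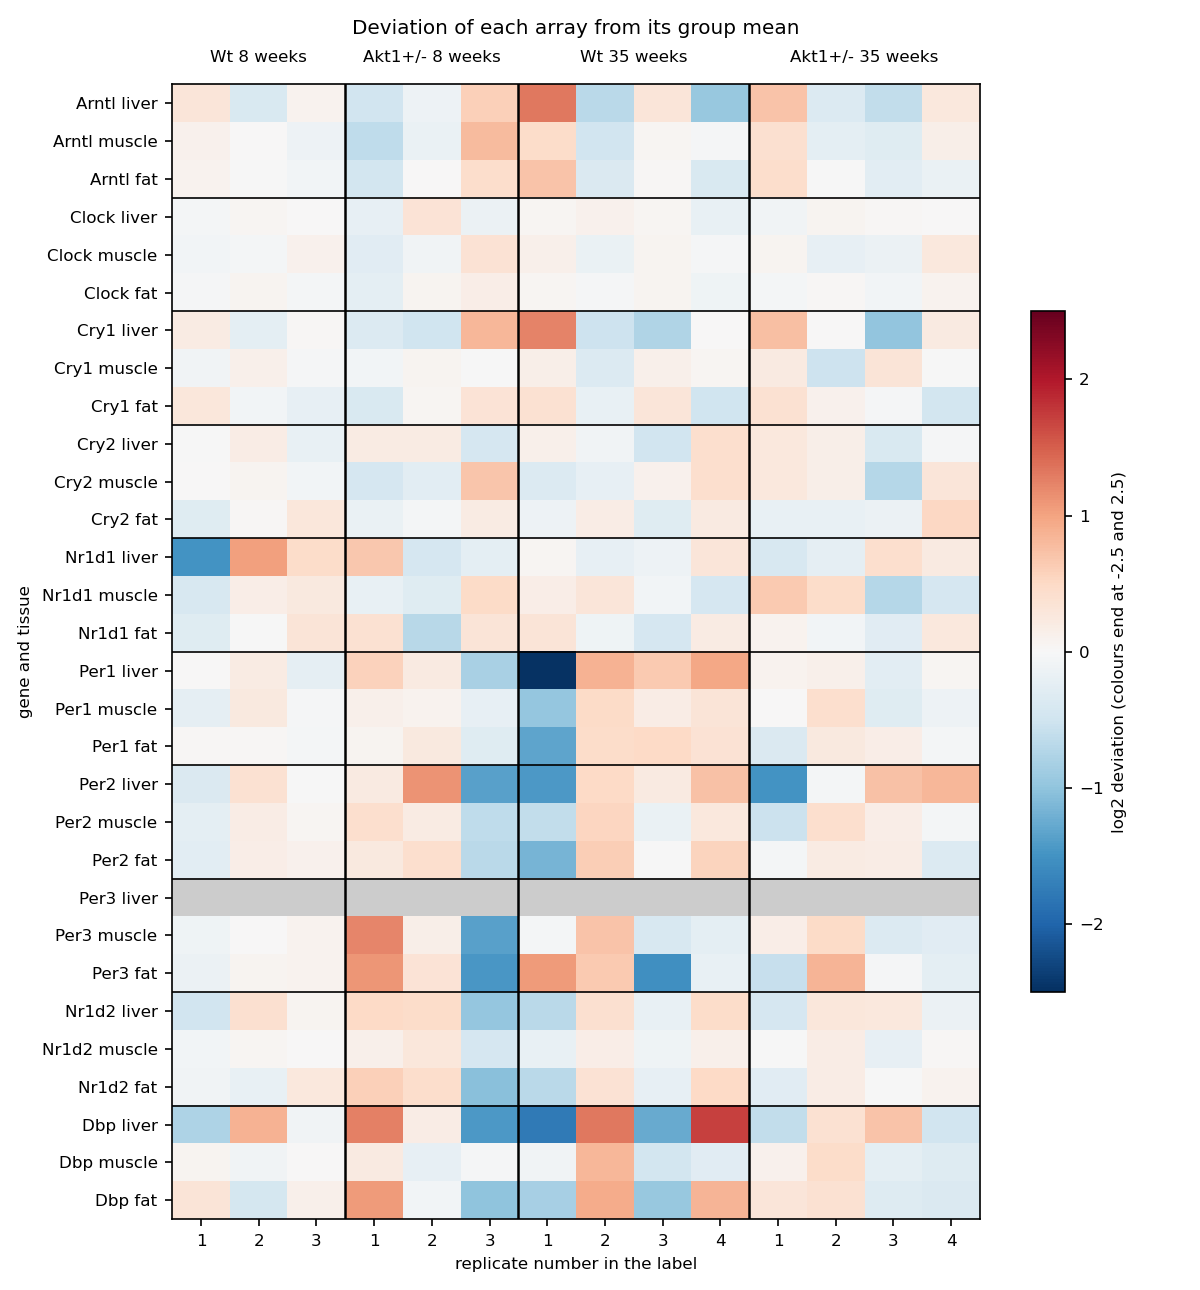
Deviation of every array from the mean of its group (log2, colors end at 2.5 to either side), with 1 row for each clock gene in each tissue and 1 column for each group and replicate number. The grey row is Per3 in liver, which was not tested. In the column of wild-type replicate 1 at 35 weeks Arntl is above and Per1, Per2, Nr1d2 and Dbp are below the group mean in all 3 tissues.

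The side of the group mean was then read for all clock genes together, with no test. Wild-type replicate 1 at 35 weeks lay on the same side of its group mean in all 3 tissues for 8 of 9 clock genes. Arntl, Clock, Cry1 and Nr1d1 were above the mean, and Per1, Per2 (brightest probe), Nr1d2 and Dbp were below it. Akt1+/- replicate 1 at 8 weeks did so for 7 of 9, with Per1, Per2, Nr1d2 and Dbp above and Arntl, Clock and Cry1 below. Wild-type replicates 2, 3 and 4 at 35 weeks had 6 of 9, and the lowest count was 2 of 9, in Akt1+/- replicate 4 at 35 weeks. The replicates named are those with the highest and lowest counts. The share of all genes on 1 side in all 3 tissues is not given here, so these counts cannot be set against a background.

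Within each tissue the clock genes were then set against Arntl, with the same deviations and the same exact test over 14 arrays. In liver Dbp was opposite to Arntl (r = -0.94, rho -0.96, exact p = 4.8e-05 for both, the smallest that the rematchings can give). Nr1d2 (r = -0.88, rho -0.84, exact p = 9.6e-05 and 0.00019), Per2 (r = -0.77, rho -0.69, exact p = 0.0063 and 0.019) and Per1 (r = -0.76, rho -0.59, exact p = 0.023 and 0.037) were opposite to it too. Cry1 moved with Arntl (r = 0.75, rho 0.66, exact p = 0.017 and 0.047).

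In fat Nr1d2 was opposite to Arntl (r = -0.84, rho -0.83, exact p = 0.0018 and 0.010) and Cry1 moved with it (r = 0.83, rho 0.91, exact p = 0.0037 and 0.00063). Per2 and Per1 had r = -0.81 and -0.79 in fat (rho -0.74 and -0.51, exact p of r = 0.015 and 0.023), but -0.32 and -0.36 without the 2 farthest arrays. In muscle Per2, by its brightest probe, was opposite to Arntl (r = -0.92, rho -0.89, exact p = 0.00024 and 0.00048). Clock moved with Arntl there (r = 0.86, rho 0.87, exact p = 0.0066 and 0.0054). Dbp in muscle had r = -0.37 (rho -0.31, exact p = 0.22 and 0.35).

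Without the 2 arrays farthest from the median of Arntl, r was -0.93 for Dbp and -0.87 for Nr1d2 in liver, -0.92 for Per2 in muscle and 0.82 for Cry1 in fat. It shrank by over 1.5 times for Per1 in liver (-0.46), for Per3 (-0.39), Nr1d2 (-0.44), Cry2 (0.30) and Nr1d1 (0.15) in muscle and for Dbp in fat (-0.33), besides Per1 and Per2 in fat. Of these correlations, 26 were computed, and after adjustment over all genes of the tissue none passed, with adjusted p of 0.12 or higher. An r of at least 0.7 in size was reached by 5 of 8 clock genes in liver, 3 of 9 in muscle and 4 of 9 in fat, against 5.32%, 6.23% and 4.4% of all genes. Unadjusted p below 0.05 was reached by 5 of 8, 2 of 9 and 4 of 9, against 13.6%, 11.8% and 13.6%. Genes measured on the same array share its RNA and its labeling.

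**Figure D5:**
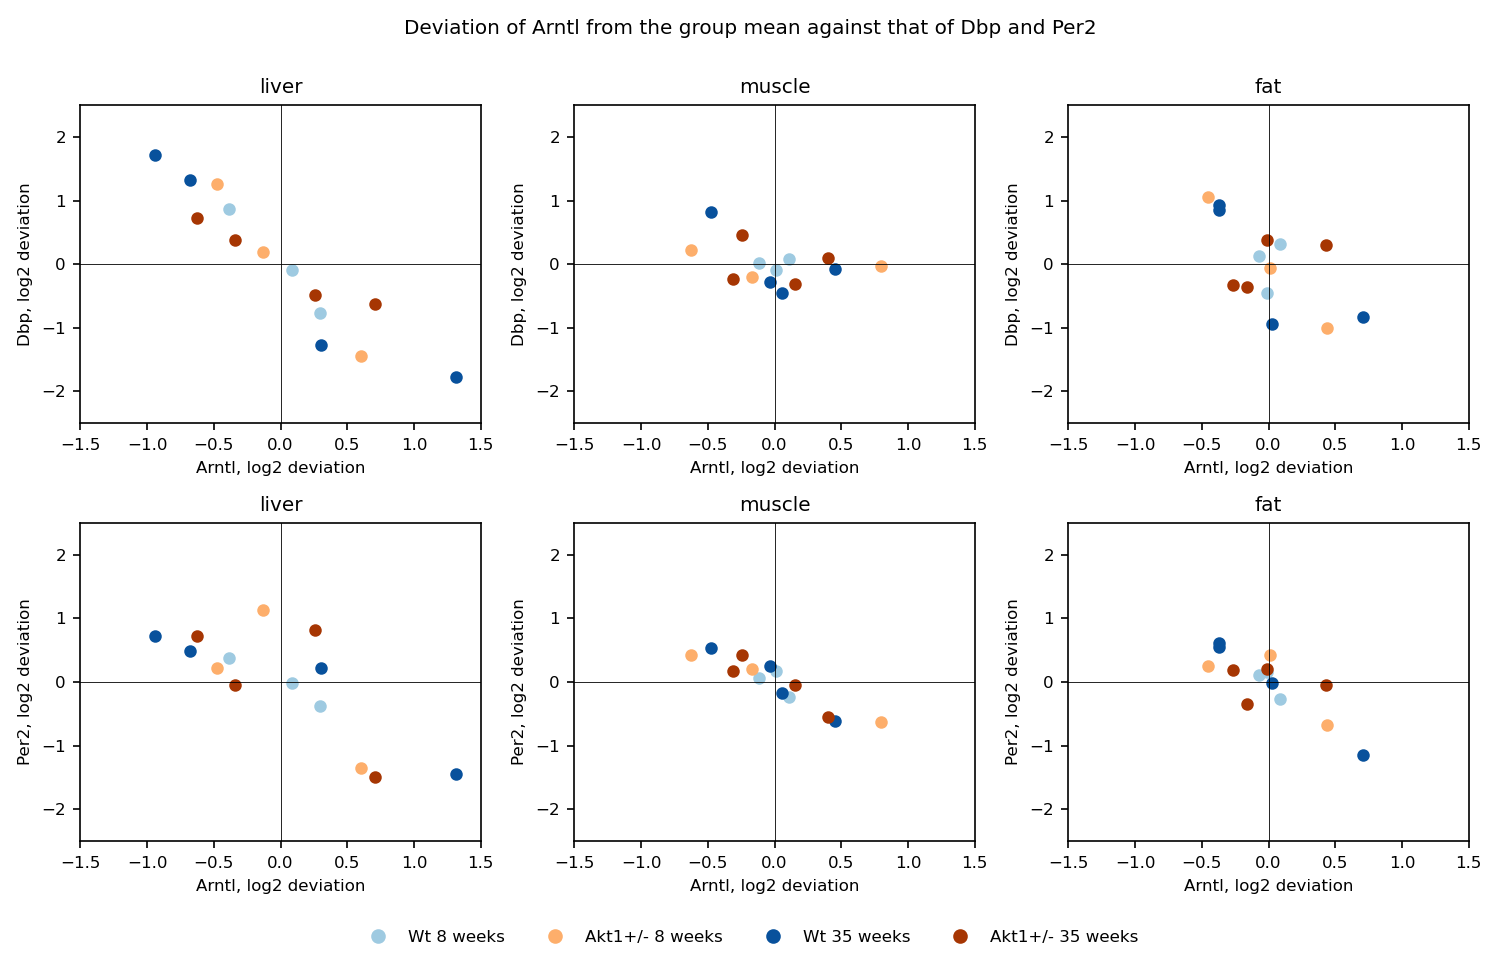
Deviation of Dbp and of Per2 from the group mean (y axis, log2) against that of Arntl (x axis, log2) on the same array, with a column of panels for each tissue, Dbp above and Per2 below, and points for the 14 arrays colored by group. Dbp falls as Arntl rises in liver (r = -0.94) and less so in fat (r = -0.64) and muscle (r = -0.37), and Per2 does so in all 3 tissues (r = -0.77, -0.92 and -0.81 for liver, muscle and fat).

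The level of Arntl minus that of Dbp puts both ends of this pattern into 1 number for each array. In wild-type mice at 35 weeks it was 0.14, -4.95, -1.37 and -5.61 in liver, -0.31, -3.16, -0.89 and -3.08 in fat and 0.72, -1.11, 0.70 and 0.44 in muscle. Replicates 2 and 4 were thus far below replicates 1 and 3 in liver and fat, while in muscle replicate 2 alone stood below the rest. In Akt1+/- mice at 8 weeks it was -4.47, -3.05 and -0.69 in liver, -2.27, -0.69 and 0.68 in fat and -0.23, 0.65 and 1.44 in muscle, in the same order of replicates in each tissue.

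The other 2 groups were narrower. In Akt1+/- mice at 35 weeks the difference was -0.41, -2.47, -3.09 and -1.003 in liver and lay between -1.41 and -0.83 in fat and between 0.37 and 1.54 in muscle. In wild-type mice at 8 weeks it was 0.28, -2.03 and -0.60 in liver and lay between -0.71 and -0.04 in fat and between -0.27 and -0.04 in muscle. In fat and muscle the ranges of these 2 groups were separate, whereas every other pair of groups overlapped in every tissue.

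The genes most like Arntl and Dbp over the 42 arrays were found after each gene was centered on its tissue mean, among 15455 genes. Dbp was most like Tef (r = 0.79), which codes for a transcription factor of the same PAR bZIP family, and next most like Nr1d2 (r = 0.78). The other genes outside the clock list most like Dbp were NAP065150-1 (r = 0.69, an array name with no gene symbol), Rev1 (r = 0.61), A930033H14Rik (r = 0.57) and Mid1ip1 (r = 0.56). Among those most like Arntl were Clpx (r = 0.75), AK088332 (r = 0.73), BB112919 (r = 0.68) and Rnf125 (r = 0.68). Dbp was the gene least like Arntl of all, with r = -0.79.

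Other parts of the clock were read from a list of 19 genes, which codes for kinases, ubiquitin ligases, receptors and related transcription factors. With age, 1 of 15 tested rose and 3 fell in liver. Csnk1e, a kinase of Per proteins, rose by 0.40, and Nono was among those that fell, by 0.16. In muscle Hlf, a relative of Dbp, rose by 0.70 and Btrc, which marks Per proteins for degradation, fell by 0.22 among 15. In fat 2 of 18 fell, among them Npas2, a paralog of Clock, by 1.05. With genotype, Fbxl21 was lower in Akt1+/- livers by 0.35 over both ages and by 0.59 at 8 weeks, and no gene of the list passed in muscle or fat. In liver 6.26% of all genes passed with genotype over both ages and 2.12% at 8 weeks.

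Of 9 genes known as outputs of the clock, 8 were tested in each tissue, and 1 passed with age, Nampt in liver, which fell by 0.79. The enzyme it codes for makes a precursor of NAD. With age 35.1%, 31.4% and 19.2% of all genes passed in liver, muscle and fat. None of the output genes passed with genotype, where 6.26%, 0% and 0.822% of all genes did over both ages. Same-numbered arrays had r of at least 0.7 for 4 of 15, 2 of 14 and 1 of 15 of the other clock components and for 1 of 7, 2 of 7 and 0 of 8 of the outputs, in the order liver and fat, liver and muscle, and muscle and fat. Of all genes, 5.44%, 5.51% and 3.56% reached that r in the same order.

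Of these lists, 3 genes were picked after their values were seen. Ciart, a repressor of the Clock and Arntl pair, had a within-group SD of 1.83 in liver, an r with Arntl of -0.93 there and same-number r of 0.85 to 0.88 across the 3 pairs of tissues. Tef deviated with Dbp in liver (r = 0.91) and fat (r = 0.86). Usp2 was opposite to Arntl in liver and muscle (r = -0.90 in both).

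Feeding state and glucocorticoids were read from marker genes. Among genes induced by fasting, 2 of 8 rose with age in liver, Fgf21 by 0.82 and G6pc by 0.48. In muscle 1 of 7 fell, and in fat 0 of 7 passed. Among genes induced by feeding, Elovl6 rose by 0.70 in liver, 1 of 6, and in muscle Elovl6 rose by 1.29, Acly rose by 0.33 and Pnpla3 fell by 1.40, among 7. Of 5 glucocorticoid-induced genes, Sgk1 rose by 0.40 in fat, and 0 passed in liver and muscle. No gene of these lists passed with genotype in any tissue. The part of feeding state or of glucocorticoids in the clock values was not tested.

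Other cells in the tissues were read from marker genes as well. The summed level of 4 macrophage markers in liver was 5.48 to 5.91 in wild-type and 6.17 to 6.51 in Akt1+/- arrays at 8 weeks, and 6.46 to 6.78 and 6.24 to 7.01 at 35 weeks. It was thus lowest in the group with the highest Cry1 in liver. In fat it lay between 7.67 and 8.13 in all groups. The summed level of 2 brown adipocyte markers ran from -0.34 to 4.21 over fat arrays, and 5 skeletal muscle markers reached 3.93 to 6.65 in fat, against 11.7 to 12.1 in muscle. The part of these cells in the results on clock genes was not tested.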

How the data were processed

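The authors hybridized RNA of each sample to a 1-color Agilent array and deposited the scanner files, with background-subtracted intensity values for each spot, and a table of log2 values of the same arrays. The submitters' notes name Feature Extraction 9.1 and the file headers 9.5.3.1. Probe positions are in build mm8. From the intensity values, spots of a probe were averaged, and log2 was taken minus the 75th percentile of the array. A probe was kept where 3 or more arrays of some group were well above background, and the brightest probe stood for a gene. Each tissue was fitted with limma 3.58.1 (R 4.3.3), with 1 mean per group and Benjamini-Hochberg adjustment over all genes, and a fit of all 42 arrays gave tissue contrasts. The array number limits the precision. Correlations were tested by exact permutation in Python 3.11.15 and were added after the data were seen. The rule names all 10 members, called genes of the lists and the 5 genes most like Arntl and Dbp, of which some are not reported here. The members and lists were chosen with earlier results of these data known. On simulated data with 200 genes changed by 1 log2 unit, the age test recovered 80.5% (liver), 84.5% (muscle) and 83% (fat). The changed genes were drawn at random, each with its own spread (median SD of all genes in liver 0.22). The recovery thus does not hold for clock genes with a larger spread, such as Dbp in liver (SD 1.26). The alternatives were other background correction, scaling, filters, probes, blocks and arrays left out. Same-numbered arrays of the 2 genotypes correlated over all genes at 35 weeks (r of 0.105 to 0.526) but not at 8 weeks (-0.195 to 0.073).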

Additional observations from a re-analysis of the deposited data

Results flagged for a closer look

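In groups of 4 arrays, a value was noted where its gap to the nearest of the others exceeded the 95% critical value of Dixon's test, which chance passes in about 1 of 20 groups. Of 60 groups examined, 4 passed. Per1 in wild-type mice at 35 weeks was -0.76 in the liver of replicate 1, with the others at 2.36 to 2.68, and 1.36 in the fat of replicate 1, with the others at 3.05 to 3.19. Cry2 in Akt1+/- mice at 35 weeks was 1.26 in the muscle of replicate 3, with the others at 2.14 to 2.29, and 1.41 in the fat of replicate 4, with the others at 0.71 to 0.75. The age difference of Cry1 differed between the tissues (adjusted p = 0.0167), with -1.62 in liver, -0.34 in muscle and -0.87 in fat, but not with slide as a random block (adjusted p = 0.056) or averaged probes (adjusted p = 0.16).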

How the results depend on the processing

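No call reversed. With age, 2 clock genes were called in liver when arrays were scaled to the median (Cry2 in addition, -0.58, adjusted p = 0.0084) or all probes of a gene were averaged (Nr1d1 in addition, 0.81, adjusted p = 0.023), and 0 when probes had to be well above background on every array, since Cry1 then left the fit. In muscle 1 was called, Cry1, with the convolution background correction (-0.15, adjusted p = 0.0496), median scaling (-0.39, adjusted p = 0.034) or slide as a random block (-0.34, adjusted p = 0.033). In fat 1 was called with probes averaged, since Cry1 was then -0.52 (adjusted p = 0.051). Over the alternatives the adjusted p of Cry1 ran from 6.9e-06 to 0.030 in liver, 0.029 to 0.33 in muscle and 0.0038 to 0.051 in fat.

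Leaving out 1 array gave 1 to 2 clock genes with age in liver. The second was Nr1d1 without wild-type replicate 2 at 8 weeks (adjusted p = 0.041), Clock without Akt1+/- replicate 2 at 8 weeks (adjusted p = 0.031) and Cry2 without Akt1+/- replicate 3 at 8 weeks or wild-type replicate 4 at 35 weeks (adjusted p = 0.030 and 0.040). In muscle it gave 0 to 2, namely Arntl without Akt1+/- replicate 3 at 8 weeks (0.63, adjusted p = 0.018) and Cry1 and Nr1d1 without Akt1+/- replicate 3 at 35 weeks (adjusted p = 0.029 and 0.046).

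The genotype difference at 8 weeks counted 1 clock gene in liver in 1 fit over all 42 arrays (Cry1, adjusted p = 0.023). In fat it counted 1 with the methods' two-way test at an unadjusted p below 0.01 and with the replicate number as a random block (Nr1d1, adjusted p = 0.034), and 0 to 1 with 1 array left out. The interaction in fat counted 1 with that methods' test and with the replicate block (Nr1d1, adjusted p = 0.047), and 0 to 1 with 1 array left out. The replicate block changed no other call of age or genotype. As a random block across tissues it added Per1 and Dbp between muscle and fat (adjusted p = 0.031 and 0.042). It also added Clock between liver and muscle (adjusted p = 0.046). A fixed block within age leaves no age difference to fit.

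The age effect differed between tissues for 2 clock genes with median scaling (Cry1 and Cry2), for 0 with the strict filter, averaged probes (Cry1, adjusted p = 0.16) or slide as a random block (Cry1, adjusted p = 0.056), and for 1 to 2 with 1 array left out, where Nr1d1 was added without the liver of wild-type replicate 1 at 8 weeks and Nr1d2 without the liver of Akt1+/- replicate 3 at 8 weeks. The counts of same-number correlations of at least 0.7 ran from 2 to 5 between liver and fat, 3 to 4 between liver and muscle and 3 to 7 between muscle and fat with 1 array left out. Median scaling moved the median age difference of all genes in liver from 0.02 to -0.18 and the calls from 6159 to 8226, and the genotype calls in liver from 1099 to 3130. Dim probes such as Per3 and Cry1 in liver limit what these arrays can measure.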
